A study of Mus musculus with 13 samples.

Results

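The keratin family was followed in cultured mouse prostate progenitor/stem cells treated with 1,25(OH)2D3 (1,25D, the hormonally active form of vitamin D). Its members were taken as the genes of the array whose annotated symbol is Krt followed by a number and at most 1 letter, which leaves out the keratin-associated genes. There were 61 such probe sets annotated to 1 gene, for 48 genes of the 18193 named genes on the arrays. For each gene the probe set with the highest mean signal over all 13 arrays was used. No filter on low signal was applied, so all 48 genes were tested. The 4 groups were cells with 100 nM 1,25D for 48 h (4 arrays), cells with vehicle (0.1% ethanol) for 48 h (3 arrays), cells with 100 nM 1,25D for 6 h (3 arrays) and cells with vehicle for 6 h (3 arrays). In all groups the cells were wild-type cultures at passage 22 that derived from 10 wk old mice whose genotype is labelled wild-type B1/6; 127/SVEV, and in the 48 h groups the medium with 1,25D or ethanol was given every 24 h. The labels do not say that the replicates came from separate isolates or cultures, so p-values measure the spread between these arrays, which may be technical. The arrays were hybridised with bulk RNA, in which more or fewer cells of a type and more or less RNA per cell cannot be told apart.

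Keratins form the intermediate filaments of epithelial cells. Each filament is built from pairs of a type I and a type II keratin, and the pair in use marks the state of the epithelium. Krt5 with Krt14 marks basal cells, Krt8 with Krt18 marks simple and luminal epithelium, and in the prostate these pairs separate the basal from the luminal layer. Krt1 with Krt10, and Krt4 with Krt13, belong to the suprabasal layers of keratinised and of moist stratified epithelium, while Krt6a, Krt6b, Krt16 and Krt17 come on in wounded or activated epithelium. A further large group builds the hair shaft and its root sheath.

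Signals are deposited log2 values, on which a difference of 1 is a doubling, and a gene was called where limma's moderated test gave a Benjamini-Hochberg adjusted p under 0.05 over all 45037 probe sets tested. The labels were checked on Cyp24a1, the vitamin D 24-hydroxylase, whose signal was 12.39 ± 0.16 with 1,25D (SD, n = 4) and 4.56 ± 0.42 with vehicle (n = 3) at 48 h, and 13.03 ± 0.20 with 1,25D and 4.53 ± 0.22 with vehicle (n = 3 each) at 6 h. Vdr, the receptor of the hormone, had signals of 9.71 ± 0.12 with 1,25D and 9.82 ± 0.04 with vehicle at 48 h, and was not called at either time. All 7 epithelial markers, among them Cdh1, Epcam and Trp63, lay between percentiles 73.6 and 98.95 of the mean signal over all probe sets, and 1 of them was called at each time (Cldn7, -0.40 at 48 h, and Cldn4, 1.52 at 6 h). Their summed linear signal was 17460 to 18310 with 1,25D and 21110 to 22030 with vehicle at 48 h, and 17560 to 18690 with 1,25D and 15410 to 16030 with vehicle at 6 h. The median log2 change of these markers was -0.20 at 48 h and 0.03 at 6 h. The 8 stromal markers lay at or below percentile 52.7, and none of them, of the 5 smooth muscle or of the 5 endothelial markers was called at either time. Of the 7 immune markers, the pan-leukocyte gene Ptprc lay at percentile 15.9 and Cd68 was higher with 1,25D at 48 h (log2 change 1.23), and the summed signal of the list was 510 to 641 with 1,25D and 401 to 419 with vehicle at 48 h on the linear scale. Of 5 measured neuroendocrine or nerve markers, Ncam1 was higher at 48 h (0.88), and their summed signal was 747 to 791 with 1,25D and 451 to 498 with vehicle. The median log2 change at 48 h was 0.08 for the immune list and 0.13 for the neuroendocrine or nerve list. Apart from Cd68 and Ncam1, no member of these lists had an unadjusted p under 0.05 at 48 h. The part of such differences in cell types in the keratin changes was not tested. A pair of arrays stood apart on the second principal component, 1,25D 48 h replicate 4 and vehicle 6 h replicate 1, with interquartile ranges of 2.95 and 3.03 against 3.27 to 3.46 on the others, and counts of called keratins are given with and without them.

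At 48 h, 7 of the 48 keratin genes were higher with 1,25D and 2 were lower, against 1.43% of all named genes called higher and 0.951% called lower, so that 18.75% of the keratins were called. The genes that rose were Krt4, Krt6b, Krt16, Krt13, Krt17, Krt19 and Krt6a, and those that fell were Krt8 and Krt18. By class, 6 of 12 squamous keratins rose and 0 fell, 1 of 5 simple keratins rose and 2 fell, and none of the 3 basal, 20 hair and root sheath or 8 other keratins was called. At 6 h, 2 of 48 were higher, Krt4 and Krt19, and 0 were lower, where the shares of all named genes were 0.687% higher and 0.165% lower. The median log2 change over the 12 squamous keratins was 0.25 at 48 h and -0.03 at 6 h, over the 5 simple keratins -0.0032 and 0.0023, and over all named genes -0.0024 and -0.020. The comparisons at the 2 times have no array in common. Without the pair of arrays that stood apart, 8 keratins were called at 48 h (Krt19 was not, adjusted p = 0.0503) and 2 at 6 h.

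**Figure D1:**
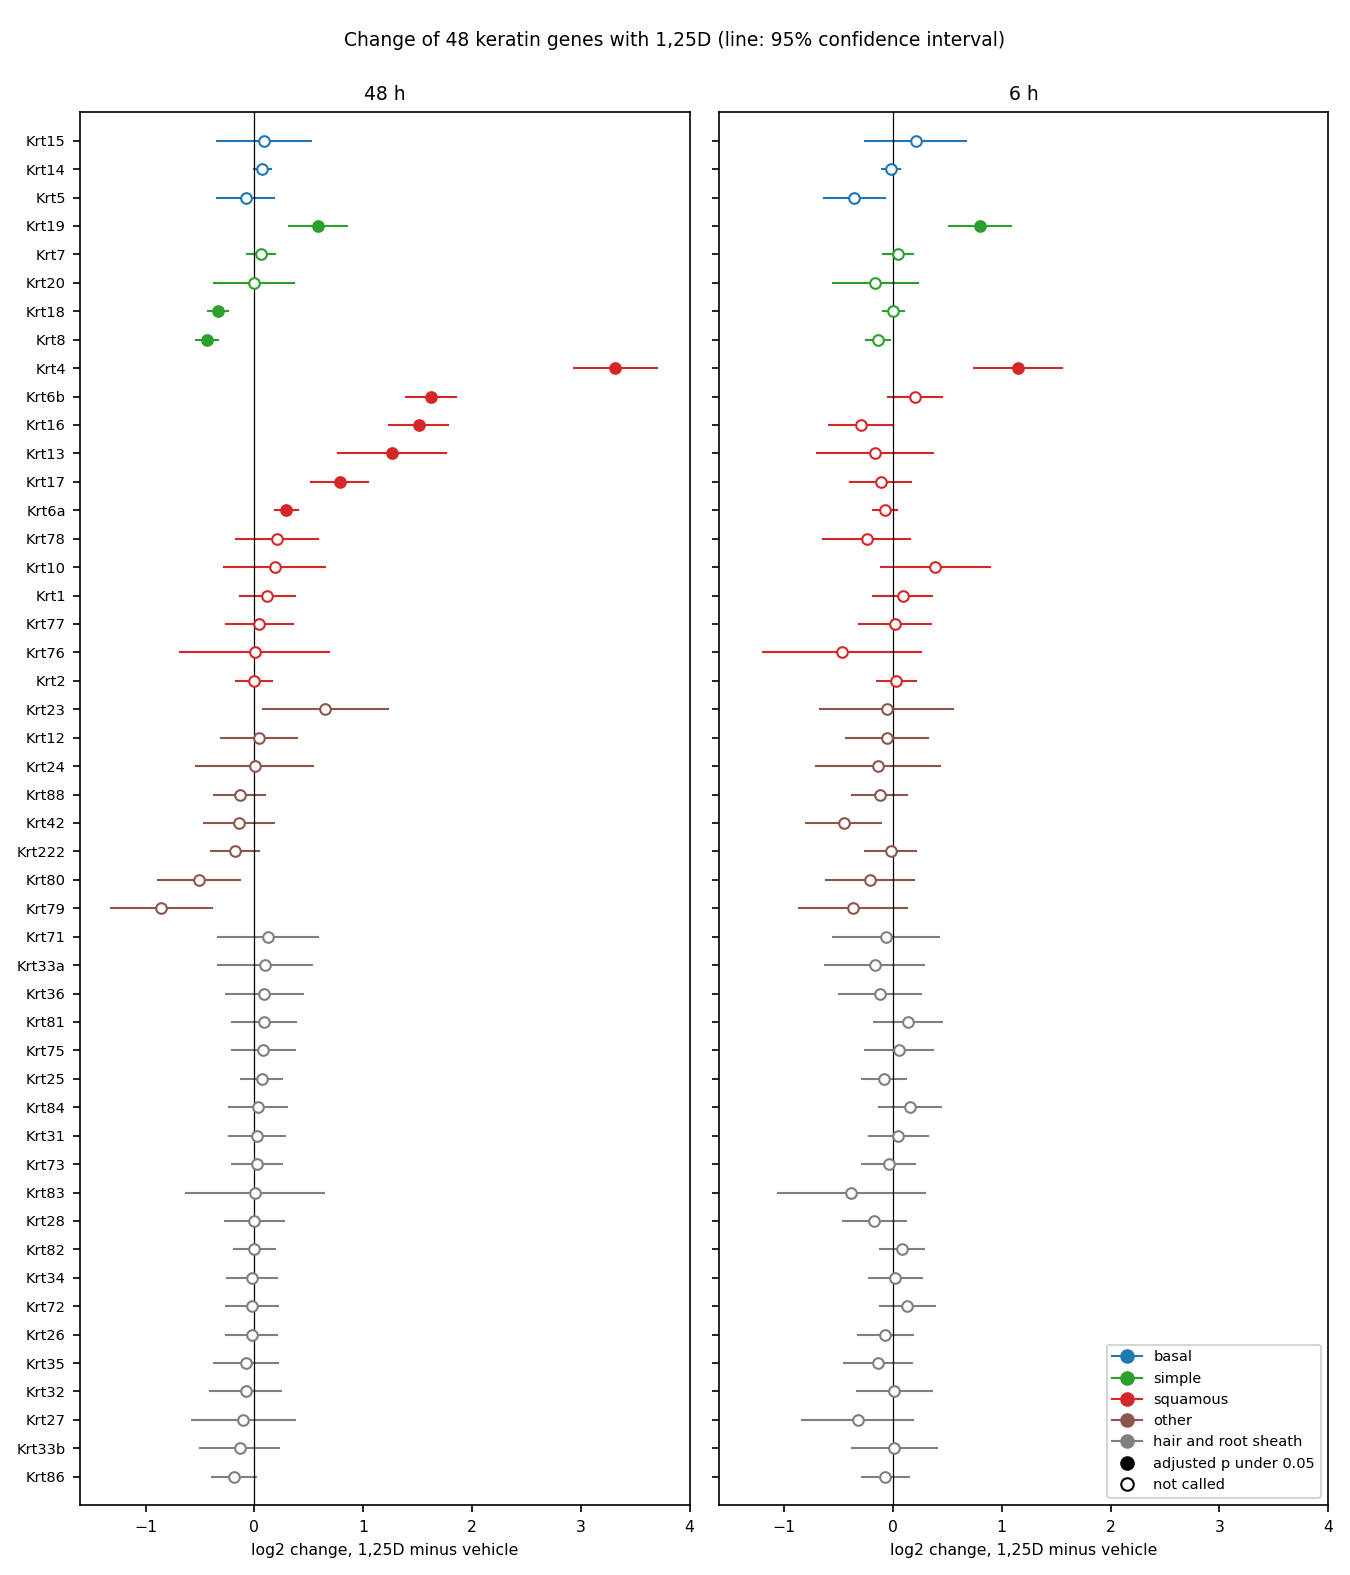
Log2 change of the 48 keratin genes, 1,25D minus vehicle, at 48 h (left) and 6 h (right), with 95% confidence intervals; filled points are called (adjusted p under 0.05) and colours give the class. At 48 h the 9 filled points are 6 squamous keratins and Krt19 to the right of 0 and Krt8 and Krt18 to the left, and the grey hair keratins lie close to 0.

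Among the squamous keratins, Krt4, the type II keratin of the suprabasal cells of moist stratified epithelium, had the largest change. Its log2 signal was 10.15, 9.84, 10.52 and 9.87 on the 1,25D arrays at 48 h, against 6.80, 6.58 and 6.96 on the vehicle arrays. The 6 h signal was 7.02, 6.73 and 6.96 with 1,25D, against 5.55, 5.92 and 5.79 with vehicle. The groups did not overlap at either time, and the 48 h vehicle arrays lay at about the level of the 6 h 1,25D arrays. The log2 change was 3.32 at 48 h (SE 0.18, adjusted p = 1.326e-07, a 9.95-fold increase) and 1.15 at 6 h (SE 0.19, adjusted p = 0.0083, 2.22-fold). At 6 h, Krt4 was no longer called once replicate 1 or replicate 3 of the 1,25D arrays was left out (largest adjusted p = 0.0647), while the 48 h call was kept without any single array. A second Krt4 probe set gave log2 changes of 3.37 at 48 h and 1.10 at 6 h, both called.

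Krt13, the type I keratin that pairs with Krt4, was called at 48 h, at a lower signal. It measured 6.87, 6.54, 7.29 and 6.23 with 1,25D at 48 h, against 5.39, 5.47 and 5.55 with vehicle, with no overlap (log2 change 1.26, SE 0.23, adjusted p = 0.012). The 6 h signals were 5.18, 4.88 and 5.00 with 1,25D, against 5.66, 4.93 and 4.96 with vehicle, a difference that was not called (-0.16, adjusted p = 0.97). Leaving out vehicle 48 h replicate 1 or replicate 2 ended the 48 h call (largest adjusted p = 0.0725). Its other 2 probe sets, both dimmer, gave 0.19 and 0.14 at 48 h and were not called, and the mean over its 3 probe sets changed by 0.53 (adjusted p = 0.20).

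All 4 keratins of activated epithelium, Krt6a, Krt6b, Krt16 and Krt17, rose at 48 h, with log2 changes from 0.29 to 1.63, and 0 of 4 was called at 6 h. Krt6b measured 13.89, 14.02, 13.86 and 13.84 with 1,25D at 48 h, against 12.25, 12.12 and 12.46 with vehicle. With 6 h of treatment it measured 8.91, 9.08 and 9.21 with 1,25D, against 8.69, 8.85 and 9.06 with vehicle. All 48 h arrays of either treatment lay far above all 6 h arrays, and the 1,25D arrays lay above the vehicle arrays at 48 h, while at 6 h the groups overlapped. The log2 change was 1.63 at 48 h (SE 0.11, adjusted p = 1.057e-06, 3.09-fold) and 0.20 at 6 h (SE 0.11, adjusted p = 0.95).

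Krt16, the type I partner of the Krt6 proteins, measured 13.08, 12.87, 13.14 and 12.89 with 1,25D at 48 h, against 11.22, 11.56 and 11.68 with vehicle. The 6 h signals were 10.95, 10.54 and 10.96 with 1,25D, against 11.02, 11.25 and 11.05 with vehicle. The 1,25D arrays were thus all higher than the vehicle arrays at 48 h and all lower at 6 h, but only the 48 h difference was called (log2 change 1.51, SE 0.13, adjusted p = 1.12e-05, 2.85-fold). The 6 h difference was -0.29 (SE 0.14, adjusted p = 0.84).

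Krt17, a type I keratin of activated epithelium and of the hair follicle, measured 11.43, 11.25, 11.47 and 11.34 with 1,25D at 48 h, against 10.34, 10.81 and 10.62 with vehicle. The groups did not overlap, and the log2 change was 0.78 (SE 0.12, adjusted p = 0.0041). At 6 h it measured 10.62, 10.29 and 10.51 with 1,25D, against 10.47, 10.80 and 10.49 with vehicle, in overlapping groups (-0.11, adjusted p = 0.97). Its second, dimmer probe set changed by 0.39 at 48 h and was not called (adjusted p = 0.37).

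Krt6a, nearly identical to Krt6b in sequence, was bright in every group and moved least of the 4. It measured 13.72, 13.57, 13.68 and 13.60 with 1,25D at 48 h, against 13.27, 13.35 and 13.43 with vehicle, without overlap (log2 change 0.29, SE 0.05, adjusted p = 0.0060). The 6 h signals were 13.38, 13.34 and 13.37 with 1,25D, against 13.40, 13.47 and 13.44 with vehicle (-0.07, adjusted p = 0.97). All 3 of its probe sets were called at 48 h, with changes of 0.29, 0.37 and 0.31. The 48 h call was lost when the spread was not fitted with a trend in signal (adjusted p = 0.11). The highest signal on any array lay between 14.33 and 14.45, so Krt6a, and Krt6b with 1,25D at 48 h, were little more than 1 log2 unit or less from the top of the scale; whether this narrows their differences was not tested. Because Krt6a and Krt6b, and likewise Krt14, Krt16 and Krt17, are similar in sequence, probes of one may also bind RNA of another, and their signals are uncertain to that extent.

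The other 6 squamous keratins, Krt1, Krt2, Krt10, Krt76, Krt77 and Krt78, were called at neither time. Krt1, the type II keratin of the epidermal spinous layer, was dim, at percentile 29.1, and measured 4.83, 4.50, 4.94 and 4.65 with 1,25D at 48 h, against 4.62, 4.46 and 4.75 with vehicle. At 6 h it measured 4.67, 4.74 and 4.53 with 1,25D, against 4.64, 4.52 and 4.51 with vehicle. The treatments overlapped at both times. Krt10, its type I partner, measured 7.17, 7.13, 7.14 and 6.29 with 1,25D at 48 h, against 6.85, 6.55 and 6.84 with vehicle, the low value being on replicate 4, an array that stood apart. The 6 h signals were 7.75, 7.35 and 7.60 with 1,25D, against 6.93, 7.47 and 7.14 with vehicle (log2 change 0.39, adjusted p = 0.96). Here too the treatments overlapped at both times. The log2 change at 48 h was 0.12 for Krt1 (95% confidence interval -0.14 to 0.37) and 0.18 for Krt10 (-0.28 to 0.65). Krt2, Krt76, Krt77 and Krt78, keratins of cornifying and oral epithelia, changed by -0.0033, 0.00067, 0.04 and 0.21 at 48 h.

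Of the 5 simple keratins, Krt8 and Krt18 fell and Krt19 rose at 48 h, while Krt7 and Krt20 were not called at either time. Krt8, the type II keratin of simple and luminal epithelium, measured 13.35, 13.30, 13.34 and 13.31 with 1,25D at 48 h, against 13.78, 13.69 and 13.81 with vehicle. At 6 h it measured 13.68, 13.63 and 13.59 with 1,25D, against 13.67, 13.83 and 13.82 with vehicle. The 4 treated arrays at 48 h lay below all other 9 arrays. The log2 change was -0.43 at 48 h (SE 0.05, adjusted p = 0.00016, a ratio of 0.740) and -0.14 at 6 h (SE 0.05, adjusted p = 0.59), and all 3 Krt8 probe sets were called lower at 48 h.

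Krt18, the type I partner of Krt8, measured 13.38, 13.46, 13.44 and 13.44 with 1,25D at 48 h, against 13.74, 13.81 and 13.75 with vehicle. The 6 h signals were 13.48, 13.40 and 13.52 with 1,25D, against 13.46, 13.51 and 13.42 with vehicle. The log2 change was -0.34 at 48 h (SE 0.04, adjusted p = 0.00050, a ratio of 0.792) and 0.0023 at 6 h (SE 0.04, adjusted p = 0.997). Here the vehicle arrays at 48 h stood above the other 10 arrays, and the treated arrays at 48 h lay at the 6 h level, whereas for Krt8 the treated arrays at 48 h were the ones that differed. The falls of Krt8 and Krt18 were called without any single array and under every other setting in which they could be measured. Both genes, at percentiles 99.7 and 99.66, lay near the top of the scale, as Krt6a did. Whether this narrows their differences was not tested.

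Krt19, a type I keratin without a tail domain that is found in simple and some basal epithelia, measured 11.29, 11.58, 11.58 and 11.49 with 1,25D at 48 h, against 10.91, 10.98 and 10.81 with vehicle. At 6 h it measured 9.78, 9.38 and 9.86 with 1,25D, against 8.84, 9.03 and 8.77 with vehicle. The groups did not overlap at either time, and every 48 h array lay above every 6 h array. The log2 change was 0.58 at 48 h (SE 0.12, adjusted p = 0.032) and 0.80 at 6 h (SE 0.13, adjusted p = 0.0093, 1.74-fold). Leaving out replicate 1 or replicate 3 of the 1,25D arrays ended the 6 h call (largest adjusted p = 0.0713), and so did fitting only the 6 h groups (adjusted p = 0.21). Leaving out any of 1,25D 48 h replicates 2, 3 and 4 or of vehicle 48 h replicates 1, 2 and 3 ended the 48 h call (largest adjusted p = 0.18), as did median centring (adjusted p = 0.052). Krt7, a type II keratin of simple glandular epithelium, was bright, with 13.08, 12.99, 13.06 and 12.93 with 1,25D at 48 h, against 12.87, 12.97 and 13.03 with vehicle. At 6 h Krt7 measured 13.20, 13.12 and 13.11 with 1,25D, against 12.98, 13.15 and 13.16 with vehicle. Its groups overlapped at both times, and its change at 48 h was 0.06 (95% confidence interval -0.07 to 0.19). Krt20, a type I keratin of intestinal and urothelial surfaces, was dim, at percentile 29.8, and changed by -0.0032 at 48 h.

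The start regions of the called keratins that are in the RefSeq promoter table (mouse build GRCm38.p6) are shown. They are Krt8 (chr15:102004293-102004592, minus strand), Krt18 (chr15:102027966-102028265, plus strand) and the first of 2 Krt13 starts (chr11:100121517-100121816, minus strand), each with 250 bases before and 50 after the start. Krt4, Krt6a, Krt6b, Krt16, Krt17 and Krt19, which also rose at 48 h, have no entry there. Krt13 is thus the only gene shown that rose, and genes that rose and fell cannot be compared by their start regions. Capitals mark vitamin D receptor half-sites and AP-1 motifs. The half-site was sought on either strand as AGGTCA and its variants, spelled AGTTCA, or GGGTCA, or else GGTTCA, and the AP-1 motif as TGANTCA.
Krt8: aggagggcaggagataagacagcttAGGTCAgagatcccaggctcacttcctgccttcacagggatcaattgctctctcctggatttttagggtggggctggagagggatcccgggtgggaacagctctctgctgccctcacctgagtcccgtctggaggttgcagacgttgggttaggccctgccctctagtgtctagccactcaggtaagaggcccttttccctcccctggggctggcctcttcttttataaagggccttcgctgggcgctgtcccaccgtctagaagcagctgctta
Krt18: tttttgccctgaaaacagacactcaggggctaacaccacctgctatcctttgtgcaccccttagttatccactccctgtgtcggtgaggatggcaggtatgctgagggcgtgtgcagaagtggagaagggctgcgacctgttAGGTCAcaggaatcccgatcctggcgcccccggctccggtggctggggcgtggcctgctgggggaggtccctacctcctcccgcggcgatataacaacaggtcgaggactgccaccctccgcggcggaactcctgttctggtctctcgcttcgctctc
Krt13: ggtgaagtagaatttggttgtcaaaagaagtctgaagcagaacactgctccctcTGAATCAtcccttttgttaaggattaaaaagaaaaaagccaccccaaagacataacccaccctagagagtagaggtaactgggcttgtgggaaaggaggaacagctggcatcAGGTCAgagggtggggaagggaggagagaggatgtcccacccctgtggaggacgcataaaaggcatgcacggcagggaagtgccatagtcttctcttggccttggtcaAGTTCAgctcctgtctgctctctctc
Krt8 and Krt18 held 1 half-site each, at bases 26 to 31 and at bases 143 to 148 counted from the 5′ end. Neither held an AP-1 match. Krt13 held 2 half-sites, at bases 167 to 172 and 275 to 280. It also held a match to the AP-1 pattern at bases 55 to 61, spelled TGAATCA. The second Krt13 start, which is not shown, held 2 AP-1 matches, both spelled TGACTCA. A half-site occurred in 43.7% of all 32851 promoters of this length in the table and in 18 of 33 promoters of 32 keratin genes, and AP-1 in 7.81% of all and in 2 of the 33, both of them Krt13 starts. A pair of half-sites 3 bases apart in the same direction, the form bound by the receptor with its partner, occurred in none of the 33 and in 0.0396% of all. The TATA box TATAAA, sought on both strands, was found in 18 of the 33 and in 13.6% of all. In the 3 windows shown the only overlap was between 2 TATA matches on opposite strands of Krt8, at bases 248 to 253 and 250 to 255. A match describes these letters only.

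**Figure D2:**
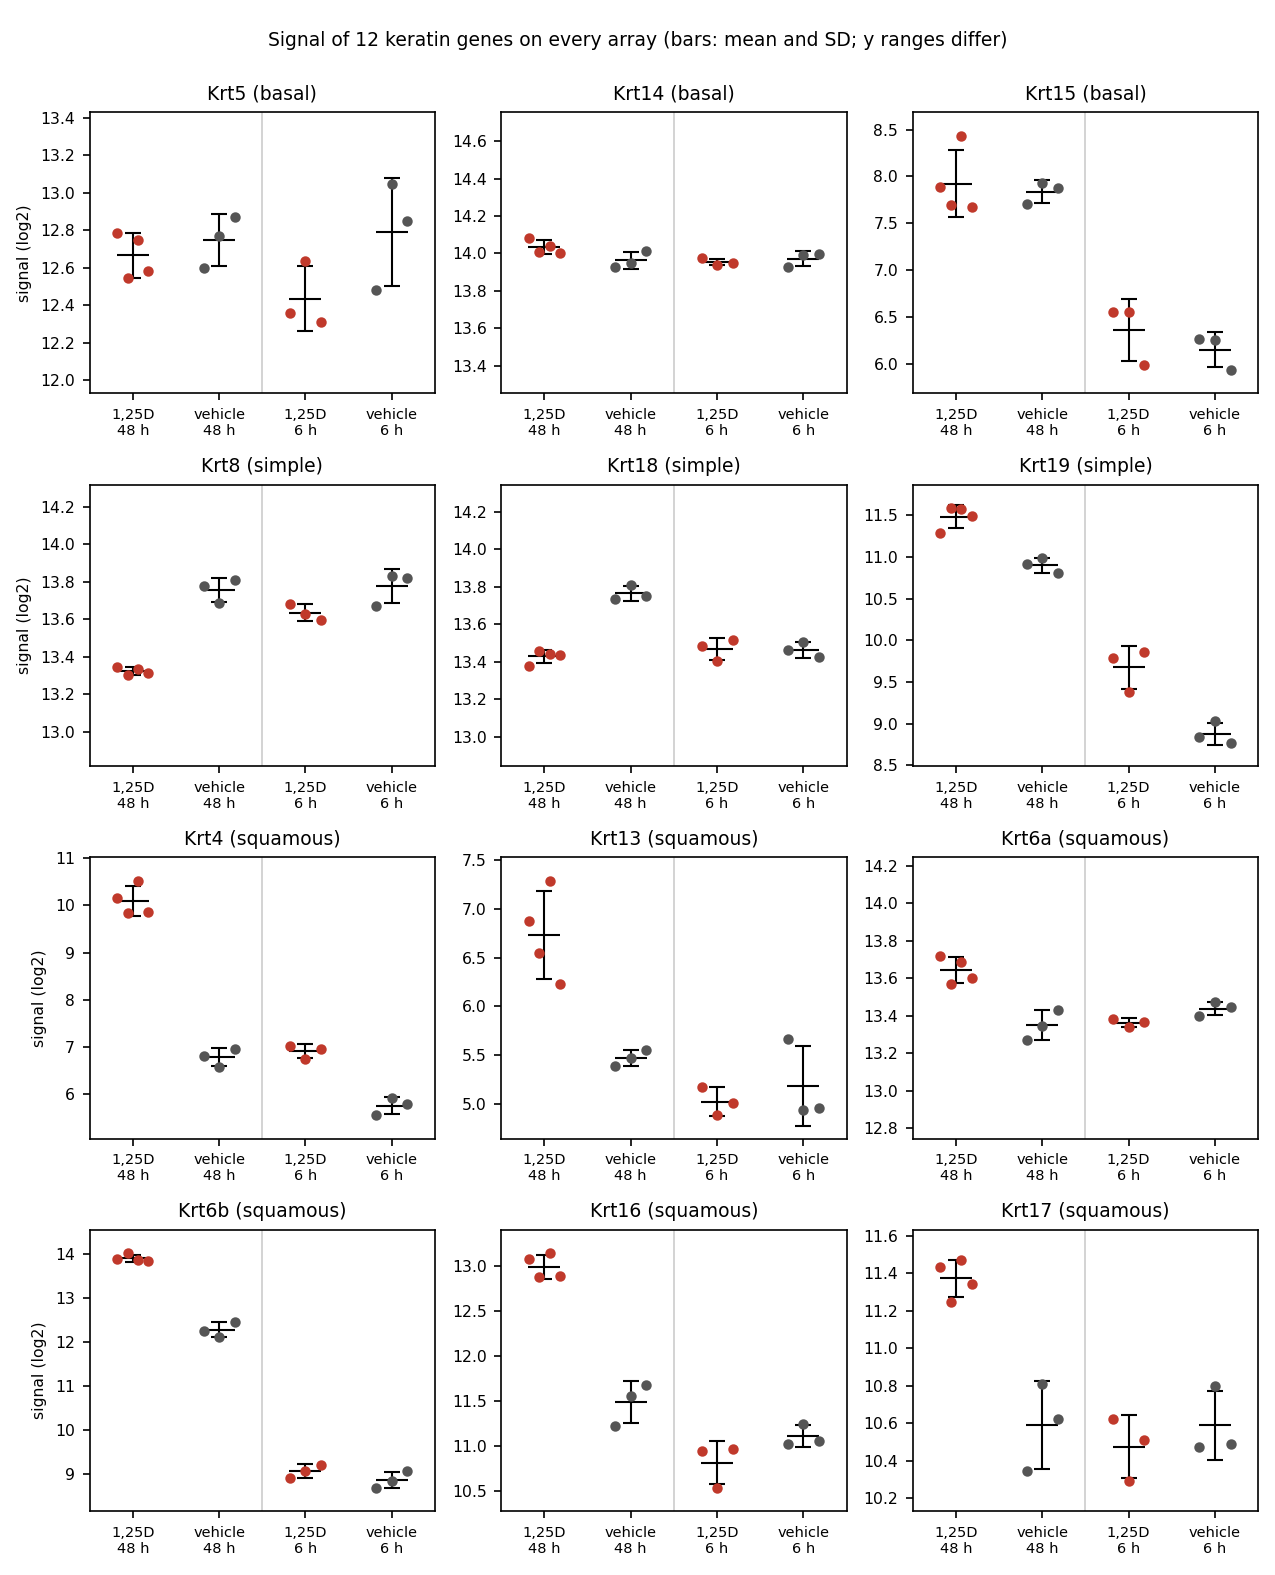
Log2 signal of 12 keratin genes on each of the 13 arrays, by group; points are arrays and bars give the mean and SD, and the y ranges differ between panels. The 1,25D arrays at 48 h lie above the vehicle arrays for Krt4, Krt6b, Krt16, Krt17, Krt13, Krt6a and Krt19 and below them for Krt8 and Krt18, while Krt5, Krt14 and Krt15 do not separate fully at 48 h.

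The basal keratins were called at neither time. Krt5, the type II keratin of basal cells, lay at percentile 99.2 and measured 12.79, 12.54, 12.75 and 12.58 with 1,25D at 48 h, against 12.60, 12.77 and 12.87 with vehicle. The 6 h signals were 12.36, 12.64 and 12.31 with 1,25D, against 12.48, 13.05 and 12.85 with vehicle. The groups overlapped at both times, with log2 changes of -0.08 at 48 h (95% confidence interval -0.34 to 0.18) and -0.36 at 6 h (-0.64 to -0.08, adjusted p = 0.60). Krt14, its type I partner, gave the highest signal of the keratins, at percentile 99.9, with 14.08, 14.01, 14.04 and 14.00 with 1,25D at 48 h, against 13.93, 13.95 and 14.01 with vehicle. At 6 h Krt14 measured 13.97, 13.94 and 13.95 with 1,25D, against 13.93, 13.99 and 14.00 with vehicle. On this probe set the Krt14 groups overlapped at both times. The change was 0.07 at 48 h (95% confidence interval -0.0070 to 0.15) and -0.02 at 6 h, at a signal near the top of the scale. A dim Krt14 probe set changed by 0.62 at 48 h (adjusted p = 0.20) and a second bright one by 0.11 (adjusted p = 0.86). On the dim set, which was not called, the 48 h groups did not overlap. It measured 6.80, 7.37, 6.97 and 6.56 with 1,25D, against 6.50, 6.30 and 6.10 with vehicle.

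Krt15, a type I keratin of basal and progenitor cells, measured 7.89, 7.70, 8.44 and 7.67 with 1,25D at 48 h, against 7.70, 7.93 and 7.88 with vehicle. At 6 h it measured 6.55, 6.55 and 5.98 with 1,25D, against 6.27, 6.26 and 5.93 with vehicle. Treated and vehicle arrays overlapped at both times (log2 change 0.09 at 48 h, 95% confidence interval -0.35 to 0.52), but all 48 h arrays lay above all 6 h arrays.

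The 20 hair and root sheath keratins lay between percentiles 12.3 and 68.1 of signal, and 11 of them below the median. None was called at 48 h or 6 h, none had an unadjusted p under 0.05 at either time, where 10.3% of all named genes had one at 48 h and 7.01% at 6 h, and their log2 changes ran from -0.19 to 0.13 at 48 h and from -0.38 to 0.15 at 6 h. The 18 measured keratin-associated proteins of hair had 0 called at either time, with 0 and 1 at an unadjusted p under 0.05 at 48 h and 6 h. Of the 8 remaining keratins, Krt12, Krt23, Krt24, Krt42, Krt79, Krt80, Krt88 and Krt222, none was called at either time. An unadjusted p under 0.05 was found for 3 at 48 h and for 1 at 6 h. Those at 48 h were Krt79 (log2 change -0.85, adjusted p = 0.089), Krt80 (-0.51, adjusted p = 0.35) and Krt23 (0.65, adjusted p = 0.56). The 1 at 6 h was Krt42 (-0.45, adjusted p = 0.55), whose second probe set changed by -0.51 (adjusted p = 0.43). On both Krt42 sets the 1,25D arrays lay below the vehicle arrays at 6 h. Krt79, a type II keratin of the hair canal and sebaceous duct, measured 7.67, 7.13, 7.76 and 7.01 with 1,25D at 48 h, against 8.002, 8.23 and 8.51 with vehicle, with no overlap. Over the family, arrays of the 2 treatments did not overlap for 14 of 48 genes at 48 h, 8 above and 6 below vehicle (29.17%), against 12.6% of all named genes in either direction. At 6 h this held for 8 of 48, 4 above and 4 below (16.67%), against 10.2% of all named genes.

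The difference between the responses, the change at 48 h minus the change at 6 h, was called for 5 of 48 keratins, 4 higher and 1 lower, against 0.346% of all named genes higher and 0.286% lower. It was 2.16 for Krt4 (SE 0.26, adjusted p = 0.0012), 1.80 for Krt16 (SE 0.19, adjusted p = 0.00039), 1.42 for Krt6b (SE 0.16, adjusted p = 0.00064), 0.37 for Krt6a (SE 0.07, adjusted p = 0.046) and -0.34 for Krt18 (SE 0.06, adjusted p = 0.029). For Krt19, called at both times, it was -0.21 (95% confidence interval -0.60 to 0.18, adjusted p = 0.99). Krt17 (0.89, adjusted p = 0.056), Krt13 (1.43, adjusted p = 0.14) and Krt8 (-0.29, adjusted p = 0.14) were called at 48 h but not in the difference. For Krt8 and Krt6a this depended on the probe set. The other Krt8 sets gave -0.37 (adjusted p = 0.034, called) and -0.32 (adjusted p = 0.085, not called). Those of Krt6a gave 0.46 (adjusted p = 0.041, called) and 0.46 (adjusted p = 0.055, not called). Krt4, Krt16 and Krt6b were called without any single array, whereas Krt6a was lost in 11 and Krt18 in 10 of the 13 fits that left out 1 array (adjusted p up to 0.14 and 0.0987). Without the pair of arrays that stood apart, 4 genes were called, namely Krt4, Krt16, Krt6b and Krt13.

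The times were also compared within each treatment, in comparisons that share arrays with those above. In vehicle cells, 6 of 48 keratins were higher at 48 h than at 6 h and 1 was lower, against 9.84% of all named genes higher and 8.75% lower. The higher ones were Krt6b (3.42, a 10.7-fold difference), Krt19 (2.02), Krt23 (1.75), Krt15 (1.69), Krt4 (1.03) and Krt18 (0.30), and the lower one was Krt80 (-1.10). In 1,25D cells, 10 were higher at 48 h and 2 lower, against 10.9% of all named genes higher and 12.5% lower. The higher ones were Krt6b (4.84), Krt4 (3.19), Krt23 (2.47), Krt16 (2.18), Krt19 (1.81), Krt13 (1.71), Krt15 (1.56), Krt17 (0.90), Krt78 (0.56) and Krt6a (0.28), and the lower ones Krt80 (-1.40) and Krt8 (-0.31). In either direction 14.58% of the keratins were called in vehicle cells and 25.0% in 1,25D cells, near the 18.59% and 23.44% of all named genes, so these counts do not set the family apart. Krt78 was not called in 8 of the 13 fits that left out 1 array (adjusted p up to 0.17). Krt23, a type I keratin of glandular epithelia, and Krt80, a type II keratin found near desmosomes, were called in both treatments. Krt23 measured 8.27, 8.22, 8.52 and 8.02 with 1,25D at 48 h, against 6.01, 5.67 and 5.70 at 6 h, and 7.44, 7.74 and 7.63 with vehicle at 48 h, against 6.64, 5.80 and 5.12 at 6 h. Krt80 measured 9.36, 9.17, 9.42 and 8.88 with 1,25D at 48 h, against 10.80, 10.51 and 10.51 at 6 h, and 9.59, 9.54 and 10.02 with vehicle at 48 h, against 10.44, 10.92 and 11.09 at 6 h. In both genes the 48 h and 6 h arrays of a treatment did not overlap. Without the pair of arrays that stood apart, 12 keratins were called in 1,25D cells and 9 in vehicle cells, where Krt10 and Krt24 were additional.

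Read by filament pair, the members did not always move alike at 48 h. In the pair Krt4 and Krt13, both rose (3.32 and 1.26), and in Krt8 and Krt18 both fell (-0.43 and -0.34). Krt6b and Krt16 changed by 1.63 and 1.51, while Krt6a, the other type II keratin that pairs with Krt16, changed by 0.29. Krt5 and Krt14 (-0.08 and 0.07) and Krt1 and Krt10 (0.12 and 0.18) were not called. Differences between the members of a pair were not tested.

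Type I keratin genes lie in a cluster on chromosome 11 and type II genes in one on chromosome 15, except that Krt18, a type I gene, lies beside Krt8. Of the measured genes, 24 were on each chromosome. On chromosome 11, Krt13, Krt15 and Krt19 are neighbours among the keratin genes in that order, and only the middle one, Krt15 (0.09), was not called at 48 h. Krt14, Krt16, Krt17 and Krt42 follow each other, with changes of 0.07, 1.51, 0.78 and -0.14, of which those of Krt16 and Krt17 were called. On chromosome 15, Krt6b, Krt6a and Krt5 are neighbours with changes of 1.63, 0.29 and -0.08, and Krt4, Krt79, Krt78, Krt8 and Krt18 with 3.32, -0.85, 0.21, -0.43 and -0.34. Keratins that rose and keratins that were not called or fell thus lay side by side in both clusters.

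**Figure D3:**
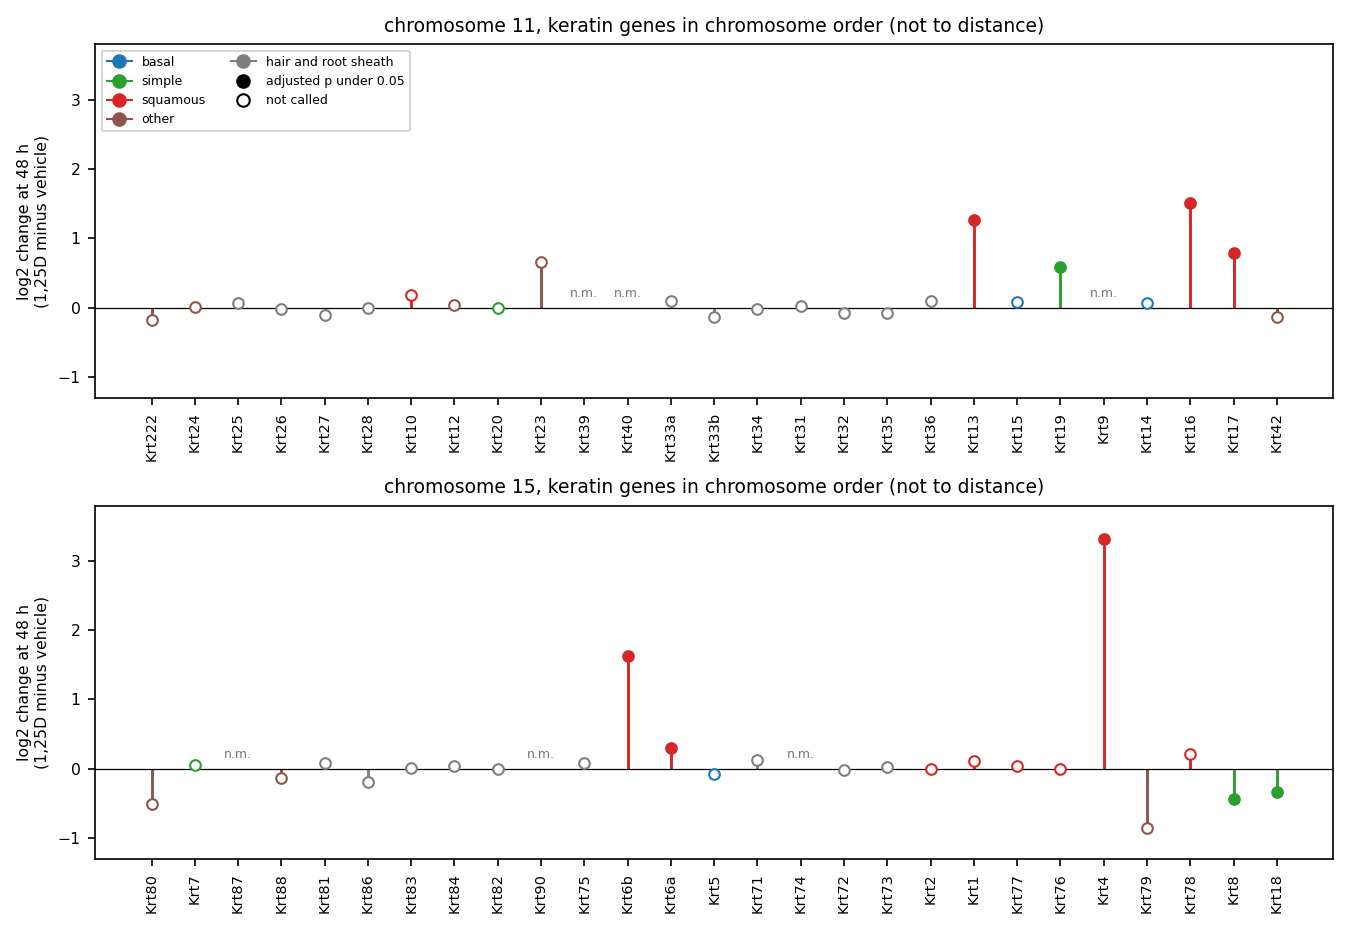
Log2 change at 48 h, 1,25D minus vehicle, of the keratin genes in their order on chromosome 11 (top) and chromosome 15 (bottom), not to distance; filled points are called, colours give the class and n.m. marks genes not measured here. Called genes such as Krt16 (1.51) stand next to genes near 0 such as Krt14 (0.07).

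Among the 9 keratin genes with more than 1 probe set, the sets gave the same calls at 48 h for Krt4, Krt6a and Krt8, where all were called, and for Krt12, Krt14, Krt42 and Krt222, where none was. Krt13 and Krt17 were the exceptions, with the brightest set called and the dimmer ones not. The remaining 39 genes were measured by 1 probe set, so their values have no such check.

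**Figure D4:**
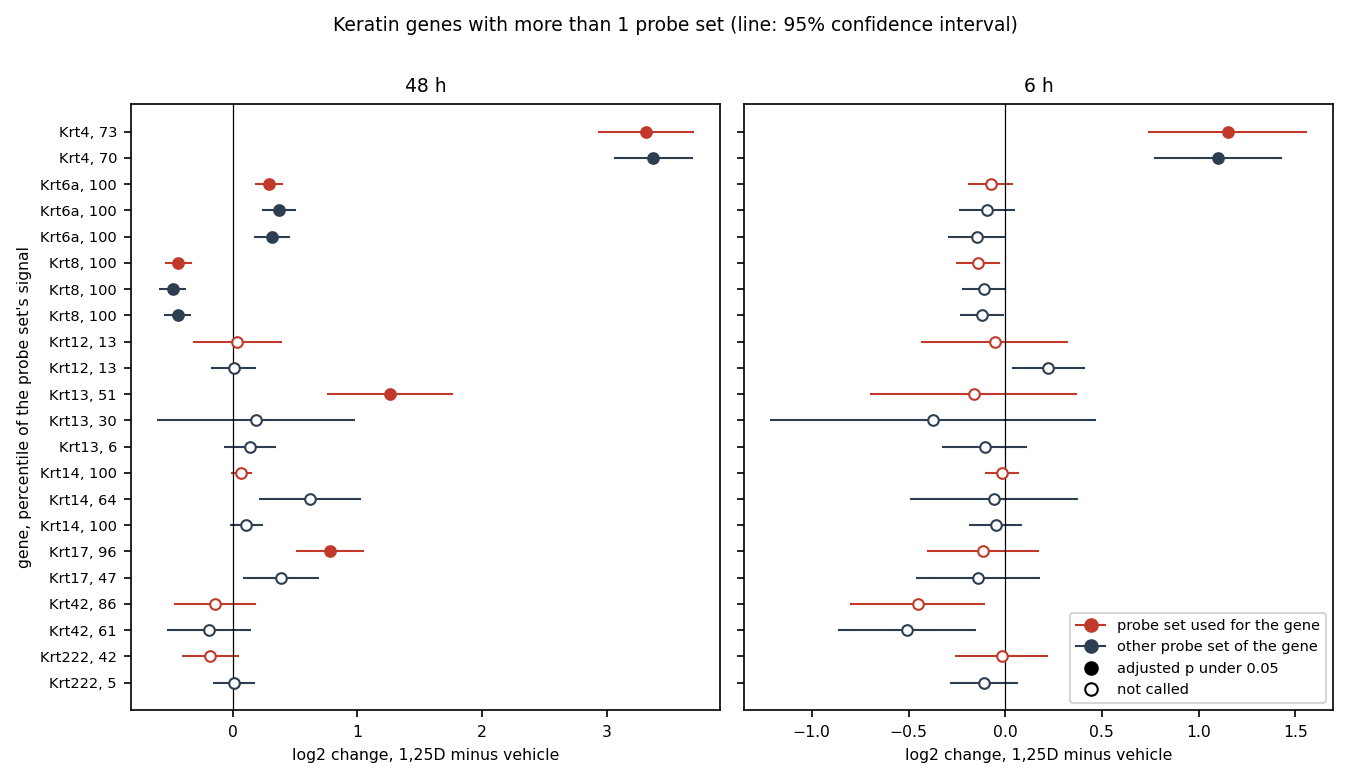
Log2 change, 1,25D minus vehicle, of every probe set of the 9 keratin genes with more than 1, at 48 h (left) and 6 h (right), with 95% confidence intervals; the number beside a gene is the rounded percentile of that probe set's signal. The sets of Krt4, Krt6a and Krt8 have overlapping intervals, and of the Krt13 sets only the brightest lies clear of 0 at 48 h.

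Genes that work with keratins were read from further lists. Of 21 partners (the plakins, plaque proteins of desmosomes and hemidesmosome components that anchor keratin filaments), 0 rose and 0 fell at either time, with 5 and 4 at an unadjusted p under 0.05 at 48 h and 6 h, against the 10.3% and 7.01% of all named genes. Of 16 other intermediate filament genes, 0 was called at either time, with 2 and 1 at an unadjusted p under 0.05. Their summed linear signal at 48 h was 4625 to 4970 with 1,25D and 5740 to 6254 with vehicle, without overlap. At 6 h it was 6846 to 7946 with 1,25D and 7656 to 9488 with vehicle, with overlap. A linear sum weighs the brightest members most, and these genes ran from percentile 5.3 to 97.6 of signal. Their median log2 change was 0.04 at 48 h and -0.03 at 6 h, so the list did not fall as a whole. Of 38 measured regulators of keratin genes, 3 rose and 1 fell at 48 h, against 1.43% of all named genes called higher and 0.951% called lower. The Krüppel-like factor Klf4 averaged 11.89 with 1,25D and 11.36 with vehicle (log2 change 0.54, adjusted p = 0.019). The repressor Prdm1 averaged 5.91 with 1,25D and 5.09 with vehicle (0.82, adjusted p = 0.016), and the bZIP factor Maf 8.60 with 1,25D and 7.46 with vehicle (1.14, adjusted p = 0.024). The receptor Notch1, which promotes the step from basal to suprabasal cells in epidermis, averaged 9.58 with 1,25D and 10.31 with vehicle (-0.73, adjusted p = 0.010). At 6 h, Ets1 rose (1.39, adjusted p = 0.00066) and Stat3 fell (-0.94, adjusted p = 0.0086), against 0.687% of all named genes called higher and 0.165% called lower.

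Of 28 measured markers of squamous differentiation other than keratins, 11 rose and 0 fell at 48 h, against 1.43% of all named genes called higher and 0.951% called lower. At 6 h, 1 rose and 0 fell, against 0.687% and 0.165%. The median log2 changes of the list were 0.43 at 48 h and 0.02 at 6 h, and those of all named genes -0.0024 and -0.020. By smallest p at 48 h these began with the small proline-rich proteins of the cornified envelope Sprr2f (4.17) and Sprr2d (2.54), the corneodesmosome gene Cdsn (2.73), Sprr2h (2.49), Sprr1b (2.39) and Sprr1a (1.70), and the gene that rose at 6 h was Sprr2h (1.46). The summed linear signal of this list was 35990 to 47350 with 1,25D and 13590 to 18120 with vehicle at 48 h, and 5183 to 6866 with 1,25D and 5729 to 6225 with vehicle at 6 h. The treated and vehicle ranges were apart at 48 h and overlapped at 6 h. This list and that of the regulators were drawn up with earlier results of these data known, so their counts are descriptions.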

How the data were processed

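RNA of cultured prostate cells was measured on 13 Affymetrix arrays, labelled from 5 ug of total RNA per the labels' protocols. The series' design text names the smaller 430A array, while the table lists 45101 probe sets, as the platform annotation used here does. The deposited values are log2 signals made by the authors, and the submitters' processing notes name MAS5 with no version or role. Their background correction and normalization are not given in the sources used here, and detection calls were not used. Precision is limited by how few arrays each group has.

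The 64 control probe sets were left out. All 13 arrays were fitted together with limma 3.58.1 in R 4.3.3, with 1 coefficient per group, an intensity trend in the spread, two-sided moderated tests and Benjamini-Hochberg adjustment over 45037 probe sets. Groups were 1,25D at 48 h, vehicle at 48 h, 1,25D at 6 h and vehicle at 6 h, with 1,25D set against vehicle at each time, the difference of these responses, and 48 h against 6 h within each treatment. Errors are SDs between arrays or standard errors of the fit. Of the probe sets, 34945 had 1 symbol, 932 several and 9160 none; those with several were not used, among them 1 annotated to both Krt17 and Krt14. All 48 keratin genes were found in the gene table of GRCm38.p6 by their gene ID, and 32 in its promoter table. Values on every array are given for keratins called with 1,25D or in the difference and for the main basal, simple and squamous keratins, the rest by class. Other lists name at most 6 called members per time, by smallest p. Members and lists were chosen with earlier results of these data known. Classes are textbook groups.

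The correlation of the deviations of same-numbered replicates was 0.277, 0.222 and 0.069 at 6 h and -0.0094, -0.534 and 0.386 at 48 h. For replicates of different number it ran from -0.266 to 0.153 at 6 h and from -0.418 to 0.539 at 48 h. At 6 h each treated array correlated most with the vehicle array of its own number, while at 48 h the values were mixed. So few arrays cannot settle whether same-numbered replicates pair, and the main fit had no replicate block. Alternatives were quantile normalization, median centring, an offset of 16 on the linear scale, no intensity trend, leaving out the dimmest 40% of probe sets, fits of only the groups compared, array quality weights, a replicate block, other probe set rules, leaving out the pair of arrays that stood apart, and leaving out each array. The fit was also run on simulated data with independent noise and known changes larger than those of Krt6a, Krt8 and Krt18 at 48 h. That run held no differences shared over an array, so it covers neither the arrays that stood apart nor such small changes.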

Additional observations from a re-analysis of the deposited data

Results flagged for a closer look

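The response at 48 h differed from that at 6 h, by the test of the difference itself, for 5 keratins: by 2.164 on the log2 scale for Krt4, 1.802 for Krt16, 1.423 for Krt6b, 0.3683 for Krt6a and -0.3378 for Krt18. In Krt16 the treated arrays lay above the vehicle arrays at 48 h and below them at 6 h. The differences of Krt6a and Krt18 were lost in 11 and 10 of the 13 fits that left out 1 array.

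In the group of 1,25D arrays at 48 h, replicate 4 lay far from the other 3 arrays for 2 keratins that were not called at either time. For Krt10 it was low, at 6.29 against 7.13 to 7.17, and for Krt76, a keratin of the palate, it was high, at 6.014 against 4.79 to 4.99. This is the array with the narrowest interquartile range of signals. Chance alone flags about 1 in 20 genes by this measure, which was applied to this group of 4 arrays and not to the groups of 3.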

How the results depend on the processing

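Of 833 values of 35 single keratin results under 24 alternatives, 775 kept their call and direction, 58 kept the direction but were no longer called, and 0 reversed. The count of keratins called at 48 h was 9, and 7 to 9 when 1 array was left out. At 6 h it was 2, 0 to 2 when 1 array was left out (0 without 1,25D 6 h replicate 1 or replicate 3) and 1 when only the 6 h groups were fitted, which leaves fewer arrays to estimate the spread. The count for the difference between responses was 5, 3 to 5 when 1 array was left out, and 3 without an intensity trend, and it has no fit of fewer groups, since it uses all 4. The counts over time were 7 to 8 in vehicle cells and 11 to 12 in 1,25D cells when 1 array was left out. With a replicate block the counts were 8 at 48 h, 2 at 6 h, 4 for the difference, 11 over time in 1,25D cells and 7 in vehicle cells, so the block moved no count by more than 1.5 times. Under it Krt19 at 48 h (adjusted p = 0.13), Krt6a and Krt18 in the difference (0.14 and 0.17) and Krt78 over time in 1,25D cells (0.11) were not called, Krt13 was additional in the difference, and no other call changed. Counts also went up: with array quality weights they were 11 at 48 h, 7 for the difference and 14 over time in 1,25D cells, against 9, 5 and 12. The 58 lost calls were those of Krt19 at both times, Krt13 and Krt6a at 48 h, Krt4 at 6 h, Krt6a and Krt18 in the difference and Krt78 over time in 1,25D cells; the cause was not tested. Krt78 was also not called with quantile normalization (adjusted p = 0.11), nor was Krt6a in the difference (0.10). Krt8 has no value once probe sets that can match several transcripts are left out. Dim genes are limited by signal over background, which the deposited values do not give.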

Other observations

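In the 20 hair and root sheath keratins, which were dim and not called, 1 array per group often held the highest signal. In the 48 h groups it was 1,25D replicate 4 for 9 of 20 genes and vehicle replicate 2 for 12 of 20. In the 6 h groups it was 1,25D replicate 1 for 13 of 20 and vehicle replicate 1 for 11 of 20. This was not particular to the hair keratins. Over all 48 keratins, vehicle replicate 2 was highest for 23 at 48 h, and 1,25D replicates 3 and 4 for 17 and 16. At 6 h, 1,25D replicate 1 was highest for 26 and vehicle replicate 1 for 22. In groups of 3 or 4 arrays, some array must lead for many genes.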
